A study of Homo sapiens with 12 samples.

Results

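DUSP1, DUSP4, DUSP5, DUSP6, DUSP10, SPRY2, SPRY4, SPRED1, ETV4 and ETV5 are feedback phosphatases, feedback adaptors and target transcription factors of the mitogen-activated protein kinase (MAPK) pathway. These 10 genes were picked by symbol as transcript readouts of MAPK activity, out of the 62696 genes in the count tables, with earlier results of these data known. Their levels were followed in 12 RNA-seq libraries of SKBR3 and MDA-MB-453, established human breast cancer cell lines of the HER2 subtype, with 3 biological replicates each of untreated SKBR3, TWEAK-treated SKBR3, untreated MDA-MB-453 and TWEAK-treated MDA-MB-453. TWEAK is a cytokine of the TNF superfamily that binds the receptor Fn14. Both lines were kept in DMEM with 10% fetal bovine serum. Starvation of treated cultures in Opti-MEM took 8 h and was followed by 10 ng/ml TWEAK over 48 h, with fresh TWEAK after 24 h. The labels carry the same protocol for the untreated cells and do not say what these received in place of TWEAK. Each line is a single established line sampled at 1 time point, and the lines were not stated to have been prepared side by side, so line and preparation cannot be told apart.

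Growth factor receptors such as HER2 activate RAS, RAF, MEK and finally the kinase ERK, and active ERK switches on genes that hold the pathway back. The dual-specificity phosphatases (DUSP) take phosphate off MAP kinases, whereas Sprouty (SPRY) and SPRED proteins act further up, at the receptor, RAS and RAF. ETV4 and ETV5 are ETS transcription factors of the PEA3 subfamily whose transcripts follow ERK activity, which is why such genes are used as readouts of the pathway in breast and other tumours.

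Library totals lay between 24773003 and 35208304 counts. ERBB2, which encodes HER2, was the highest of 7 epithelial and HER2 markers in every group, with a mean level of 7578 CPM (counts scaled to the size of the library) in untreated SKBR3 and 890.5 CPM in untreated MDA-MB-453, while the epithelial cadherin CDH1 was almost absent from SKBR3 (0.162 CPM). The summed level of 5 leukocyte markers did not exceed 1.48 CPM in any library. The summed level of 4 endothelial markers was 3.93 to 5.14 CPM in untreated and 6.43 to 7.72 CPM in TWEAK-treated SKBR3, where CDH5 rose from a mean of 1.74 to 4.21 CPM (log2 fold change 1.26, edgeR adjusted p = 0.000855), VWF had 2.86 and 2.68 CPM, and PECAM1 and KDR had 3 counts or fewer in every library. The summed level of 5 fibroblast markers was 17.3 to 20.9 CPM in SKBR3 and 106.5 to 122.7 CPM in MDA-MB-453, nearly all of it COL1A1, while COL3A1, DCN and LUM had 3 counts or fewer in every library. The part of these markers in the results below was not tested. NFKB2 and RELB, targets of the TWEAK receptor, rose in both lines (log2 fold changes of 1.79 and 1.44 in SKBR3, and of 1.67 and 2.75 in MDA-MB-453). TNFRSF12A, the gene of the receptor itself, rose in SKBR3 (0.36, edgeR adjusted p = 0.0322) and was not called in MDA-MB-453 (0.17, edgeR adjusted p = 0.129). In both lines, the TWEAK libraries numbered 2 were unlike the remaining TWEAK libraries, with a chi-square per degree of freedom of 21.1 and 23.7 in SKBR3, where the other pairs within a group had 1.78 to 5.76, and of 10.1 and 5.40 in MDA-MB-453, where they had 2.09 to 2.89. Changes with TWEAK in the called genes among the 10 are therefore also given without these libraries.

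The promoters of the genes that rose with TWEAK in SKBR3 are shown here as RefSeq gives them, so that the sequence can be set beside the response. A window of 300 bases, from 250 bases before to 50 bases after the start of the transcript, was held for 6 of the 10 genes in 9 windows, and the window at the outermost start of each gene is printed, 5′ to 3′ on the strand of the gene (GRCh38.p14). DUSP1 lies at chr5:172771146-172771445 on the minus strand, SPRY2 at chr13:80341077-80341376 on the minus strand and SPRED1 at chr15:38252586-38252885 on the plus strand. Capitals mark matches on either strand to the cAMP response element (CRE) TGACGTCA, to its shorter core TGACG, which is also part of the CRE, and to the ETS core CCGGAA.
DUSP1: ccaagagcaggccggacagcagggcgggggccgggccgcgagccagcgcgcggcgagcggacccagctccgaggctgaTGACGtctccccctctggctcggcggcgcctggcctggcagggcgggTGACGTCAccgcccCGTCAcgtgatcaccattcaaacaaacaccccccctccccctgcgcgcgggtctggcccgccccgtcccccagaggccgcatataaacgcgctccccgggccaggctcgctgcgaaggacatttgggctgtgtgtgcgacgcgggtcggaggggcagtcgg
SPRY2: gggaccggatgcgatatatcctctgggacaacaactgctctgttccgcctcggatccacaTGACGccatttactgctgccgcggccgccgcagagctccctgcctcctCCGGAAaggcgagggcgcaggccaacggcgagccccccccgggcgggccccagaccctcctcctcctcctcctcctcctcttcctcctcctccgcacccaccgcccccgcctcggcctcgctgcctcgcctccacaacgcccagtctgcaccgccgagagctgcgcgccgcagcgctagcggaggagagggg
SPRED1: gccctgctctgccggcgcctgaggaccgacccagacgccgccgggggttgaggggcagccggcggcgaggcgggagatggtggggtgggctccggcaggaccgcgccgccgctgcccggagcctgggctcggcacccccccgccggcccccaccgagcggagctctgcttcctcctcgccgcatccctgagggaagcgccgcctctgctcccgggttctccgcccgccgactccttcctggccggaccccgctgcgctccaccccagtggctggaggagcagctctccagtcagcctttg
The DUSP1 window held the full CRE at position -125, counted from the start of the transcript, a match found in 1.85% of 35116 windows of the same length. Its shorter core occurred at -172 as well, and on the opposite strand at -122, within the CRE, and at -111. The SPRY2 window held the core at -190 (24.6% of all windows have one) and an ETS core at -142 (17.2% of all windows), and the SPRED1 window, with a GC content of 76.3%, held none of these matches. The core was also in 1 window each of SPRY4 (at -68) and DUSP10 (at -4, opposite strand), which were not called in SKBR3. Windows were also searched on both strands for AP-1 (TGANTCA, in 7.71% of all windows), NF-κB (GGG, any 2 bases, then TTTCC, in 1.91%) and the CArG box of serum response factor (1.29%), which were not found in any of the 9 windows. A match is a stretch of letters only, and no binding was measured here.

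The first question was how the 10 genes are set in the lines before treatment. Levels of different genes were compared per length, in TPM, a scale that corrects for gene length and library size. In untreated SKBR3, DUSP4 was the highest with 88.4 ± 1.74 TPM (SD, n = 3), followed by DUSP1 with 45.9 ± 0.808 TPM. ETV4 came next (17.4 ± 1.25 TPM), then DUSP5 (15.5 ± 0.741 TPM) and SPRY4 (15.2 ± 1.48 TPM), whose replicates overlapped. SPRED1 stood at 8.92 ± 0.875 TPM, and SPRY2, DUSP6 and DUSP10 formed a low group at 2.58, 2.49 and 2.20 TPM in which each neighbour overlapped the next. ETV5 was the lowest at 0.0847 ± 0.0325 TPM, from 2 to 5 counts per library. The order was another one in untreated MDA-MB-453, led by DUSP5 with 139 ± 1.26 TPM and DUSP6 with 80.1 ± 4.31 TPM. SPRED1 (34.0 ± 2.34 TPM) and SPRY4 (31.3 ± 1.66 TPM) overlapped, followed by DUSP4 (26.0 ± 0.810 TPM) and DUSP10 (23.6 ± 1.27 TPM). DUSP1 had only 8.68 ± 1.73 TPM there, ETV4 and SPRY2 overlapped at 3.46 and 3.001 TPM, and ETV5 was again last at 1.72 ± 0.131 TPM.

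**Figure D1:**
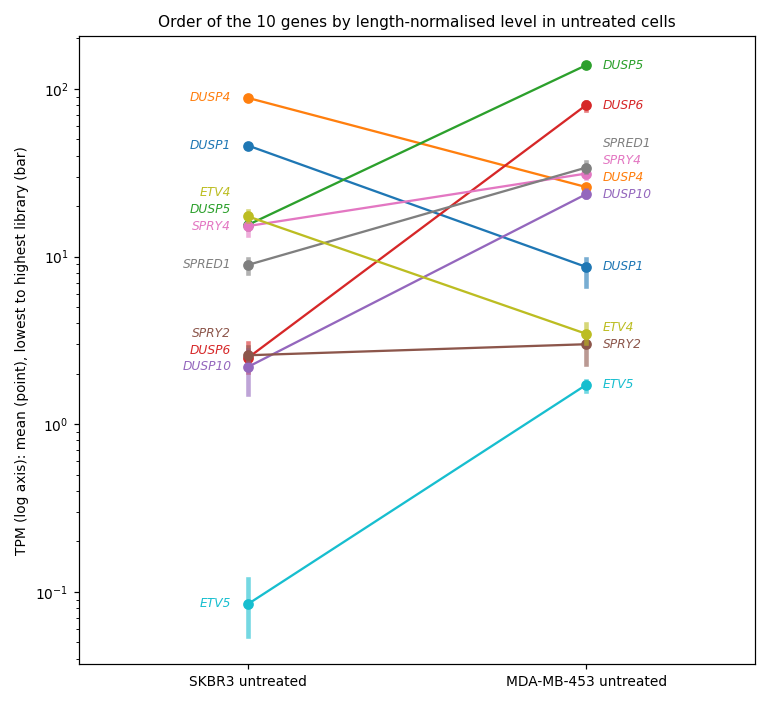
Mean TPM (points, log axis) of the 10 genes in untreated SKBR3 and untreated MDA-MB-453, joined by a line per gene, with bars from the lowest to the highest of 3 replicates. DUSP4 and DUSP1 lead in SKBR3 (88.4 and 45.9 TPM), and DUSP5 and DUSP6 in MDA-MB-453 (139 and 80.1 TPM). SPRY2, at 2.58 and 3.001 TPM, overlaps between the lines.

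Between the untreated lines, 8 of the 9 genes other than ETV5 passed edgeR's quasi-likelihood test at an adjusted p of 0.1, 3 of them higher and 5 lower in SKBR3. This share is near the background, since 84.2% of the 17201 genes tested over all 12 libraries were called in this comparison, 43.5% higher and 40.7% lower in SKBR3. ETV5 was called as well, which makes 9 of 10, but it was too low in SKBR3 to be tested there and entered this comparison only through MDA-MB-453, so its difference is given as a description. The median absolute log2 difference was 2.28 over the 9 genes other than ETV5, against 0.825 over all genes tested. Here and throughout, a lower level in bulk RNA cannot be told apart from fewer cells that express the gene.

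The phosphatases were divided between the lines. DUSP1, a nuclear phosphatase that acts on p38 and JNK as well as ERK, had 24.6, 23.8 and 24.8 CPM in untreated SKBR3 and 3.64, 5.22 and 5.40 CPM in untreated MDA-MB-453, a log2 difference of 2.36 ± 0.107 (SE, edgeR adjusted p = 8.16e-13). DUSP4, also nuclear, had 170, 164 and 174 CPM in SKBR3 against 51.4, 52.2 and 50.7 CPM in MDA-MB-453 (log2 difference 1.72 ± 0.056, edgeR adjusted p = 6.49e-15). Both were thus higher in every SKBR3 replicate than in any MDA-MB-453 replicate. DUSP6, the cytoplasmic phosphatase that acts on ERK, showed the largest difference of the 9 genes other than ETV5, with 3.06, 2.07 and 2.48 CPM in SKBR3 and 78.8, 86.7 and 86.6 CPM in MDA-MB-453. Its log2 difference was -5.04 ± 0.098 (edgeR adjusted p = 6.41e-18), and summed counts gave a level 32.9 times as high in MDA-MB-453 (95% interval of counting error 28.5 to 38.1). DUSP6 shares 28.63% of its exonic bases with a gene on the opposite strand, ENSG00000274021, which held 13 to 29 counts in MDA-MB-453 libraries and 0 to 1 in SKBR3 libraries, against 2120 counts or more of DUSP6 in MDA-MB-453. DUSP5, the nuclear phosphatase that acts on ERK, had 10.7, 9.73 and 10.6 CPM in SKBR3 against 94.2, 94.8 and 97.6 CPM in MDA-MB-453 (log2 difference -3.21 ± 0.063, edgeR adjusted p = 7.18e-18). DUSP10, which acts on JNK and p38, had 2.05, 1.70 and 1.16 CPM against 19.1, 17.5 and 17.7 CPM (log2 difference -3.45 ± 0.132, edgeR adjusted p = 7.01e-14). Replicates of the lines were far apart for each of the 5 phosphatases.

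Shares were taken of the summed TPM of these 5 phosphatases only, and the other MAPK phosphatases listed below were left out. The highest of those was DUSP16, with a mean of 27.0 TPM in untreated SKBR3 and 60.6 TPM in untreated MDA-MB-453. In untreated SKBR3, DUSP4 made up 57.2% ± 0.569 and DUSP1 29.7% ± 0.222 of the sum, with 10.0% for DUSP5, 1.61% for DUSP6 and 1.42% for DUSP10. In untreated MDA-MB-453, DUSP5 made up 50.1% ± 0.710 and DUSP6 28.9% ± 0.910, with 9.39% for DUSP4, 8.52% for DUSP10 and 3.13% for DUSP1. These 5 phosphatases were therefore led by the pair DUSP4 and DUSP1 in one line and by the pair DUSP5 and DUSP6 in the other. The sum itself was 155 ± 3.87 TPM in SKBR3 and 277 ± 6.33 TPM in MDA-MB-453. With TWEAK the sum was 153 ± 8.88 TPM in SKBR3, where the share of DUSP1 was 37.6% ± 1.32 and that of DUSP4 50.2% ± 1.73, and no replicate with TWEAK overlapped an untreated replicate in either share. In TWEAK-treated MDA-MB-453 the share of DUSP5 was 46.5% ± 0.590 and that of DUSP6 30.8% ± 0.422, again without overlap. The TPM of DUSP6 itself overlapped in MDA-MB-453, at 75.4 to 83.9 TPM untreated and 82.45 to 84.05 TPM with TWEAK. These shares are descriptions and were not tested. They are parts of 1 sum, so a lower share of a gene goes with a higher share of the rest.

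**Figure D2:**
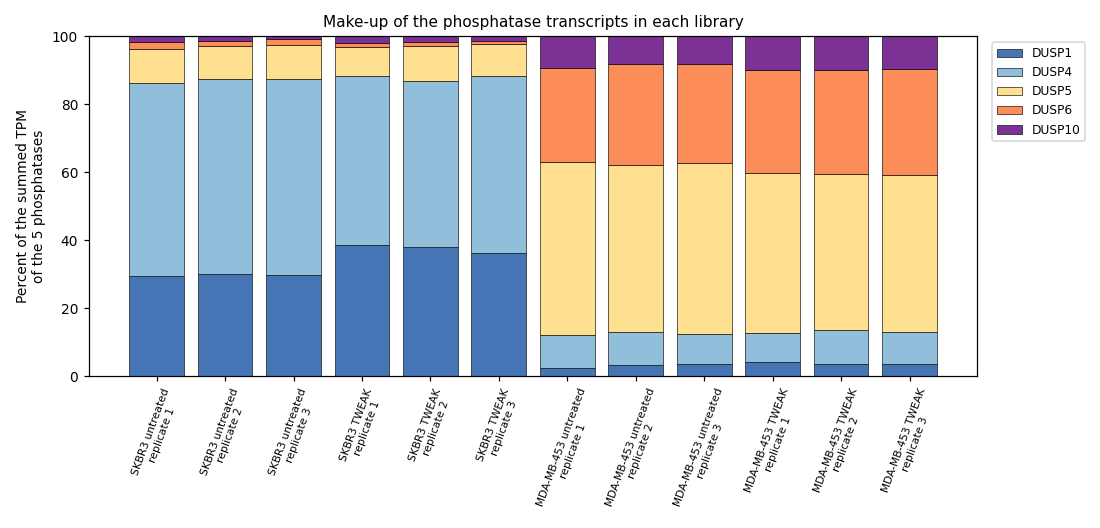
Percent of the summed TPM of the 5 phosphatases taken by each, in stacked bars that reach 100, 1 bar per library. The 6 SKBR3 bars are filled mainly by DUSP4 and DUSP1 and the 6 MDA-MB-453 bars by DUSP5 and DUSP6, and the DUSP1 share is 29.5% to 30.0% in untreated and 36.1% to 38.7% in TWEAK-treated SKBR3.

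Of the Sprouty and SPRED genes, SPRED1, which restrains RAS and RAF with the help of neurofibromin, had 19.6, 18.5 and 16.6 CPM in untreated SKBR3 against 67.4, 76.0 and 71.2 CPM in untreated MDA-MB-453. The log2 difference was -1.97 ± 0.078 (edgeR adjusted p = 1.07e-13). SPRY4, an inhibitor of receptor signalling to RAS, had 27.9, 23.2 and 27.9 CPM against 52.5, 57.8 and 57.0 CPM (log2 difference -1.08 ± 0.089, edgeR adjusted p = 3.56e-09). Both were higher in all MDA-MB-453 replicates. SPRY2, of the same family, was the single gene of the 10 without a call, with 2.01, 2.07 and 2.48 CPM against 2.97, 1.97 and 2.94 CPM. Its groups overlapped, and the log2 difference of -0.27 had a 95% interval of -0.63 to 0.10 (edgeR adjusted p = 0.165). It was called without MDA-MB-453 untreated replicate 2 (-0.44, edgeR adjusted p = 0.0220), the low library of that group, and with a correction for GC content and length (-0.31, 0.0989), an alternative added after the data were seen.

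Of the 2 ETS factors, ETV4 was higher in SKBR3 and ETV5 was hardly counted there. ETV4 had 14.9, 15.8 and 17.7 CPM in untreated SKBR3 and 2.90, 3.72 and 3.31 CPM in untreated MDA-MB-453 (log2 difference 2.28 ± 0.108, edgeR adjusted p = 1.56e-12). ETV5 had 0.180, 0.083 and 0.124 CPM in SKBR3 and 2.45, 2.81 and 2.83 CPM in MDA-MB-453. From summed counts of 10 and 220, the ratio of the ETV5 levels was 20.6 with a counting interval of 11.0 to 43.5. Thus ETV4 made up 99.5% ± 0.214 of the summed TPM of both factors in SKBR3 and 66.8% ± 1.53 in MDA-MB-453. Exons of ETV4 overlap those of DHX8 on the opposite strand over 1.93% of their bases, and exons of ETV5 overlap those of DGKG on the same strand over 2.84%.

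**Figure D3:**
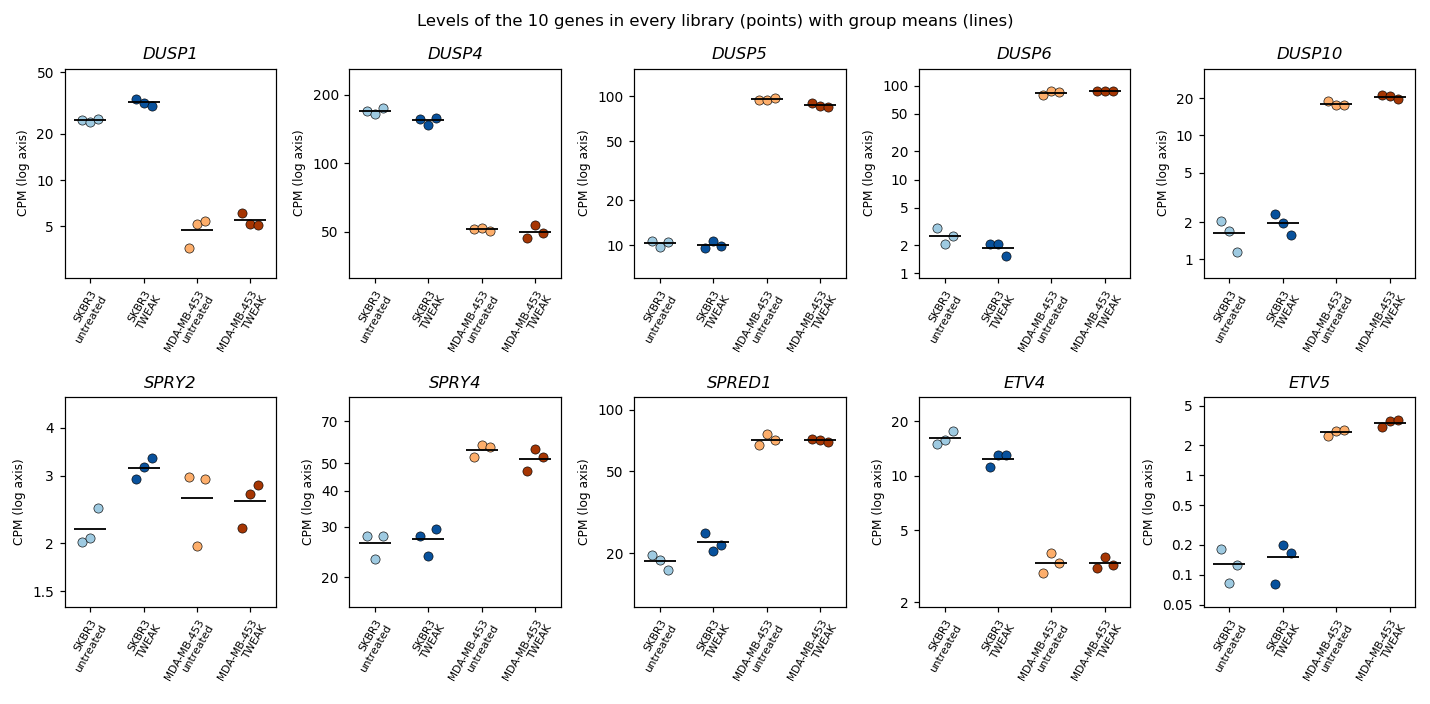
CPM (log axis, its range set per panel) of the 10 genes in each library, with 3 points and a line at the mean for each of the 4 groups. The lines are far apart for DUSP6, with 2.07 to 3.06 CPM in untreated SKBR3 and 78.8 to 86.7 CPM in untreated MDA-MB-453, while SPRY2 overlaps between the lines.

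The main question was whether the readouts move with TWEAK. In SKBR3, DUSP1, SPRY2 and SPRED1 rose and ETV4 fell, which makes 4 of 9 genes tested, while 10.4% of the 15661 genes tested were called. By direction, 6.60% of all genes tested were called higher and 3.82% lower. Since the genes were chosen with earlier results of these data known, the shares here and below are a description and show no excess over all genes. With a block for the replicate number, SPRY2 and SPRED1 lost their calls, and calls over all genes went from 1633 to 1211. The log2 fold changes of the 9 genes were at most 0.53 in size and had a median absolute value of 0.30, against 0.12 over all genes tested. They went both ways, with a signed median of 0.04, against -0.01 over all genes tested. In CPM, TWEAK replicates lay above all untreated replicates for 3 of the 9 genes, where 14.4% of all genes did so, and below them for 3, where 12.2% did so. ETV5, with 2 to 5 counts per library, was too low to be tested in SKBR3.

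DUSP1 (chr5:172768096-172771195, GRCh38) rose from 24.6, 23.8 and 24.8 CPM to 33.9, 31.6 and 30.4 CPM in SKBR3. All TWEAK replicates lay above all untreated ones, and the untreated replicates lay close together. The log2 fold change was 0.38 ± 0.071 (SE, 95% interval 0.23 to 0.54, edgeR adjusted p = 0.00605), and it was 0.39 without TWEAK replicate 2. DUSP1 was called in all 14 alternative analyses, which included each library left out, with adjusted p between 0.000119 and 0.0533. DUSP4 (chr8:29333064-29350684) had 170, 164 and 174 CPM untreated and 156, 148 and 159 CPM with TWEAK. These groups did not overlap, but the log2 fold change of -0.14 ± 0.058 (95% interval -0.27 to -0.01) missed the threshold (edgeR adjusted p = 0.201). DUSP6 (chr12:89347235-89352501) had 3.06, 2.07 and 2.48 CPM untreated and 2.06, 2.05 and 1.55 CPM with TWEAK, from 37 to 85 counts per library. Its groups were only just apart, and the log2 fold change was -0.44 ± 0.198 (95% interval -0.87 to -0.001, edgeR adjusted p = 0.252). It was -0.27 without untreated replicate 1, the highest library (edgeR adjusted p = 0.667). DUSP5 (chr10:110497907-110511533) had a log2 fold change of -0.04 with a 95% interval of -0.25 to 0.16, from 9.73 to 10.7 CPM untreated and 9.54 to 10.8 CPM with TWEAK. DUSP10 (chr1:221701424-221742089) had one of 0.24 with an interval of -0.27 to 0.76, from 1.16 to 2.05 CPM untreated and 1.59 to 2.31 CPM with TWEAK. Treated and untreated replicates of these last genes overlapped, and for DUSP10, with 28 to 57 counts per library, the interval leaves room for a change as large as that of DUSP1 or SPRY2.

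SPRY2 (chr13:80335976-80341126) rose in SKBR3 from 2.01, 2.07 and 2.48 CPM to 2.95, 3.17 and 3.34 CPM. The groups did not overlap, and the log2 fold change of 0.53 ± 0.151 (95% interval 0.19 to 0.86, edgeR adjusted p = 0.0646) was the largest of the 9 genes tested, on 50 to 60 counts per untreated and 73 to 80 per TWEAK library. It was 0.52 without TWEAK replicate 2. The call was lost by edgeR without untreated replicate 1 (adjusted p = 0.248), untreated replicate 2 (0.234), TWEAK replicate 1 (0.101) or TWEAK replicate 3 (0.158), and in DESeq2 (0.156). SPRED1 (chr15:38252836-38357249) rose from 19.6, 18.5 and 16.6 CPM to 25.2, 20.5 and 21.9 CPM, with no overlap in CPM and with untreated replicate 3 the lowest. In TPM its groups overlapped, at 7.97 to 9.69 TPM untreated and 9.16 to 12.1 TPM with TWEAK. Its log2 fold change was 0.30 ± 0.096 (95% interval 0.09 to 0.51, edgeR adjusted p = 0.0980), and 0.37 without TWEAK replicate 2. This call was lost by edgeR without untreated replicate 1 (adjusted p = 0.136), 2 (0.260) or 3 (0.271), or without TWEAK replicate 1 (0.284) or 3 (0.139), while the direction stayed the same in all 14 alternatives. SPRY4 (chr5:142310427-142326455) had 27.9, 23.2 and 27.9 CPM untreated and 27.9, 23.8 and 29.6 CPM with TWEAK, so its groups overlapped (log2 fold change 0.04, 95% interval -0.18 to 0.26, edgeR adjusted p = 0.884).

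ETV4 (chr17:43527844-43579620) fell in SKBR3, from 14.9, 15.8 and 17.7 CPM to 11.2, 12.99 and 13.03 CPM. Every TWEAK replicate lay below every untreated replicate, with a log2 fold change of -0.38 ± 0.097 (95% interval -0.59 to -0.16, edgeR adjusted p = 0.0388), and of -0.41 without TWEAK replicate 2. The call was lost by edgeR without untreated replicate 2 (adjusted p = 0.122), untreated replicate 3 (0.162) or TWEAK replicate 1 (0.142). ETV4 thus went down where DUSP1, SPRY2 and SPRED1 went up. ETV5 (chr3:186046314-186110318) held 10 counts over the untreated and 11 over the TWEAK-treated SKBR3 libraries, a ratio of 1.14 with a counting interval of 0.439 to 2.99.

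**Figure D4:**
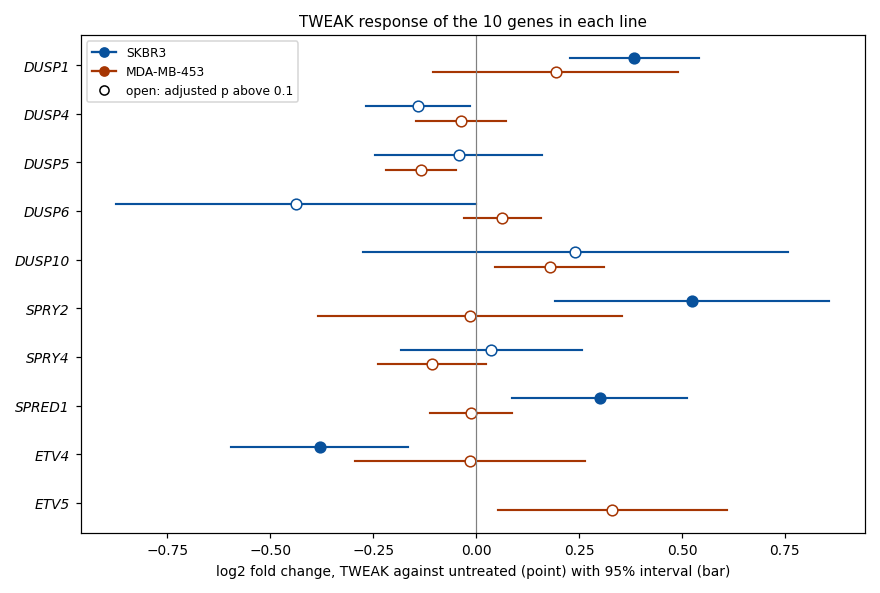
Log2 fold change of TWEAK-treated against untreated cells (points) with its 95% interval (bars) for the 10 genes in SKBR3 and MDA-MB-453, open points having an adjusted p above 0.1. The filled SKBR3 points are DUSP1 (0.38), SPRY2 (0.53), SPRED1 (0.30) and ETV4 (-0.38), no MDA-MB-453 point is filled, and ETV5 was not tested in SKBR3.

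In MDA-MB-453, none of the 10 genes passed the threshold. The count of 0 was the same in edgeR and DESeq2, and 1.49% of the 14929 genes tested were called. In edgeR 3 of the 10 genes had an unadjusted p under 0.05, as did 10.5% of all genes tested. With a block for the replicate number, DUSP5 and DUSP10 were called, and calls over all genes rose from 223 to 894. The median log2 fold change of the 10 genes was -0.01, against 0.002 over all genes tested. DUSP5 had 94.2, 94.8 and 97.6 CPM untreated and 90.4, 86.0 and 85.2 CPM with TWEAK, all below the untreated replicates (log2 fold change -0.13 ± 0.039, 95% interval -0.22 to -0.05, edgeR adjusted p = 0.203). It was called without TWEAK replicate 1 (-0.16, edgeR adjusted p = 0.0853) or TWEAK replicate 2 (-0.13, edgeR adjusted p = 0.0449). Calls over all genes were 205 and 2101 in these fits, against 223 with every library. DUSP10 had 19.1, 17.5 and 17.7 CPM untreated and 21.4, 20.8 and 19.5 CPM with TWEAK, all above (log2 fold change 0.18, 95% interval 0.05 to 0.31, edgeR adjusted p = 0.306). DUSP6 had 78.8, 86.7 and 86.6 CPM untreated and 88.8, 87.5 and 87.2 CPM with TWEAK, which did not overlap in CPM but did in TPM (0.06, 95% interval -0.03 to 0.16, edgeR adjusted p = 0.638). ETV5 had 2.45, 2.81 and 2.83 CPM untreated and 3.04, 3.51 and 3.57 CPM with TWEAK, with the largest log2 fold change of the 10 genes in this line, 0.33 (95% interval 0.05 to 0.61, edgeR adjusted p = 0.376). In CPM, TWEAK replicates thus lay above all untreated ones for DUSP6, DUSP10 and ETV5, where 8.19% of all genes tested did so, and below for DUSP5, where 6.88% did so.

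For the genes called in SKBR3, the values in MDA-MB-453 were as follows. DUSP1 had 3.64, 5.22 and 5.40 CPM untreated and 6.16, 5.19 and 5.07 CPM with TWEAK, so that the groups overlapped, and its log2 fold change was 0.19 (95% interval -0.11 to 0.49, edgeR adjusted p = 0.650). SPRED1 had 67.4, 76.0 and 71.2 CPM untreated and 71.8, 71.1 and 69.8 CPM with TWEAK (log2 fold change -0.01, 95% interval -0.11 to 0.09), an interval that does not reach the 0.30 measured in SKBR3. SPRY2 (-0.02, 95% interval -0.39 to 0.35) and ETV4 (-0.01, 95% interval -0.29 to 0.27) were measured on 54 to 118 counts per library, with wider intervals. SPRY4 had 52.5, 57.8 and 57.0 CPM untreated and 46.8, 56.1 and 52.4 CPM with TWEAK. Its log2 fold change was -0.11 (edgeR adjusted p = 0.567), and without TWEAK replicate 2, the highest of the TWEAK replicates, it was -0.17 and called (edgeR adjusted p = 0.0398). Leaving out that library also raised the calls over all genes from 223 to 2101. DUSP4 had 47.0 to 53.7 CPM with TWEAK around untreated values of 50.7 to 52.2 CPM, with a log2 fold change of -0.04 (95% interval -0.15 to 0.07).

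A difference of the responses in the lines was tested with an interaction term for line and TWEAK in the fit of all 12 libraries, given as MDA-MB-453 minus SKBR3. None of the 9 genes other than ETV5 was called in edgeR or in DESeq2, and 3.37% of 17201 genes tested were called. ETV5, too low to be tested in SKBR3, entered this test only through MDA-MB-453, so no difference between the lines is read from it. In edgeR 4 of the 9 had an unadjusted p under 0.05, as did 11.1% of all genes tested. The differences with such a p were those of DUSP6 (0.50, 95% interval 0.14 to 0.86, edgeR adjusted p = 0.193), SPRED1 (-0.32, -0.55 to -0.09, edgeR adjusted p = 0.184), SPRY2 (-0.55, -1.05 to -0.05, edgeR adjusted p = 0.375) and ETV4 (0.36, 0.02 to 0.70, edgeR adjusted p = 0.405). For DUSP1 the difference was -0.20 with an interval of -0.52 to 0.13 (edgeR adjusted p = 0.752), so the call in SKBR3 alone does not show a response particular to that line. Without TWEAK replicate 2 of both lines, an alternative added after the data were seen, 3 genes were called: SPRED1 (-0.37, edgeR adjusted p = 0.00656), DUSP6 (0.58, 0.0610) and SPRY4 (-0.28, 0.0564). Calls over all genes rose as well in that fit, to 2077 from 579 with every library. Without SKBR3 TWEAK replicate 2 alone, SPRED1 (-0.37, edgeR adjusted p = 0.0175) and DUSP6 (0.58, 0.0955) were called, among 1150 calls over all genes. Without SKBR3 untreated replicate 2, DUSP6 was called (0.62, edgeR adjusted p = 0.0999), among 409 calls over all genes.

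For each gene called in a line, the genes with the most similar pattern were sought among 11638 genes by Pearson correlation of log2(CPM + 1) over the 12 libraries after the mean of each line was subtracted. These values share the library, its depth and the treatment, and are given as a description. They were RNF114 (0.917) and IL15 (0.897) for DUSP1, UNC13D (0.895) and HOXC13 (0.890) for SPRY2, MCL1 (0.944) and TBL1XR1 (0.930) for SPRED1, and BAIAP2 (0.945) and SEPTIN9 (0.925) for ETV4.

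Further genes of the pathway were counted from lists written by hand, also with earlier results of these data known. Of the other MAPK phosphatases (DUSP2, DUSP7, DUSP8, DUSP9 and DUSP16), 4 were tested in each line. Of these, 0 were called by edgeR or DESeq2, with 0 at an unadjusted p under 0.05. For comparison, edgeR called 10.4% of all genes tested in SKBR3, against 1.49% for MDA-MB-453. An unadjusted p under 0.05 was reached by 19.7% of all genes tested in the former line and 10.5% in the latter. With only 4 genes, a count of 0 does not set this list apart from those shares. Of the other Sprouty and SPRED genes, 3 were tested in each line, and SPRY1 fell in SKBR3, where 3.82% of all genes tested were called lower, from 334, 306 and 305 counts in libraries of like depth to 256, 219 and 264 counts. Its log2 fold change was -0.31 (edgeR adjusted p = 0.0929), opposite in direction to SPRY2 in the same cells, and -0.22 without TWEAK replicate 2. The SPRY1 call was lost by edgeR without untreated replicate 1 (0.201), 2 (0.296) or 3 (0.227), or without TWEAK replicate 1 (0.162) or 2 (0.123), and in DESeq2 (0.142).

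Among 18 other ERK-output genes, 4 of 14 tested rose in SKBR3 by edgeR, where 6.60% of all genes tested were called higher, and none was called lower. DESeq2 called 3 of these 4, LIF being the exception (adjusted p = 0.170), and also called ETV1, a factor of the PEA3 subfamily named here after its values were seen, lower. In edgeR the log2 fold change of ETV1 was -0.76 (95% interval -1.32 to -0.19, edgeR adjusted p = 0.120), with every TWEAK replicate below the untreated ones. HBEGF, which encodes a ligand of the EGF receptor, went from 1.19, 0.994 and 0.949 CPM to 4.45, 3.13 and 3.88 CPM (log2 fold change 1.85 ± 0.194, edgeR adjusted p = 0.000113). EPHA2, an ephrin receptor, went from 37.2, 32.0 and 38.5 CPM to 56.7, 52.6 and 56.7 CPM (0.62 ± 0.080, edgeR adjusted p = 0.000559). LIF, an IL-6 family cytokine, went from 1.29, 0.745 and 0.908 CPM to 1.54, 1.804 and 1.63 CPM (0.73 ± 0.231, edgeR adjusted p = 0.0943). In each of these genes the TWEAK replicates lay above all untreated ones. CCND1, the cyclin D1 gene, outside the rule for named genes and added after its values were seen, was the other one, with 0.20 ± 0.054 (edgeR adjusted p = 0.0502). HBEGF and EPHA2 were called with each library left out (1.98 and 0.65 without TWEAK replicate 2). LIF was not without untreated replicate 2 (0.338) or 3 (0.233), or TWEAK replicate 1 (0.144), 2 (0.103) or 3 (0.156), nor was CCND1 without untreated replicate 1 (0.180), 2 (0.241) or 3 (0.138), or TWEAK replicate 1 (0.191) or 3 (0.110). In MDA-MB-453, 1 of 11 tested was called, where 1.49% of all genes tested were. It was the AP-1 gene FOS, which rose from 0.929, 0.875 and 1.21 CPM to 2.62, 1.42 and 2.35 CPM (log2 fold change 1.09 ± 0.238, edgeR adjusted p = 0.0424). All TWEAK replicates were above, with replicate 2 the lowest, and the value without replicate 2 was 1.29. The FOS call was lost by edgeR without untreated replicate 1 (0.170), 2 (0.299) or 3 (0.106), or without TWEAK replicate 3 (0.244). In SKBR3 the log2 fold change of FOS was 0.02 with an interval of -0.26 to 0.30.

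Of 25 genes of the ERK cascade itself, from adaptors to the RSK kinases, 1 of 25 tested was called in SKBR3, against 10.4% of all genes tested. In MDA-MB-453, 0 of 24 were called by edgeR and DESeq2, where edgeR called 1.49% of all genes tested. An unadjusted p under 0.05 in edgeR was found for 2 of the 24 and for 10.5% of all genes. The gene in SKBR3 was KSR1, a scaffold that holds RAF, MEK and ERK together, which rose from 16.9, 18.1 and 16.9 CPM to 42.8, 39.1 and 44.7 CPM. Its replicates were far apart, with a log2 fold change of 1.28 ± 0.076 (edgeR adjusted p = 1.53e-06) that was called with each library left out and was 1.34 without TWEAK replicate 2. Of 21 genes of the JNK and p38 cascades, 4 rose and 1 fell in SKBR3, against 6.60% and 3.82% of all genes tested. In MDA-MB-453, 0 of 19 tested were called by edgeR or DESeq2, against 1.49% of all genes in edgeR. There 1 of the 19 had an unadjusted p under 0.05 in edgeR, against 10.5% of all genes. MAPK11, which encodes a p38 kinase, went from 10.8, 10.0 and 10.8 CPM to 13.8, 19.1 and 15.03 CPM (0.60 ± 0.122, edgeR adjusted p = 0.0110, 0.45 without TWEAK replicate 2). The stress gene GADD45A went from 7.22, 7.87 and 7.47 CPM to 9.50, 13.2 and 10.8 CPM (0.57 ± 0.126, edgeR adjusted p = 0.0179, 0.43 without TWEAK replicate 2). TWEAK replicate 2 was the highest in both genes. The other genes that rose, named after their values were seen, were the kinases MAP3K5 (0.36, edgeR adjusted p = 0.0808) and MAP2K3 (0.34, edgeR adjusted p = 0.0321). MAP3K5 was not called without untreated replicate 1 (0.191), 2 (0.143) or 3 (0.240), or TWEAK replicate 1 (0.131) or 3 (0.222), nor was MAP2K3 without untreated replicate 1 (0.153) or 2 (0.183). MAP2K6, a kinase that activates p38, fell (-0.43 ± 0.134, edgeR adjusted p = 0.0917), and its log2 fold change was -0.28 without TWEAK replicate 2, which had 6.94 CPM against 9.39 and 10.2 CPM in the other TWEAK replicates. That call was lost by edgeR without untreated replicate 1 (0.246), 2 (0.328) or 3 (0.130), or TWEAK replicate 3 (0.114). Of 10 growth factor receptors, FGFR3 and FGFR4 fell in SKBR3, against 3.82% of all genes tested. In MDA-MB-453, 0 of 9 tested were called by edgeR or DESeq2, with 0 at an unadjusted p under 0.05. The shares of all genes there in edgeR were 1.49% and 10.5%. FGFR3 went from 41.5, 43.1 and 43.4 CPM to 27.9, 28.4 and 32.0 CPM (-0.54 ± 0.073, edgeR adjusted p = 0.000695) and was called with each library left out. FGFR4 went from 94.2, 84.1 and 92.8 CPM to 73.3, 82.3 and 71.2 CPM (-0.26 ± 0.077, edgeR adjusted p = 0.0695), a call lost by edgeR without untreated replicate 1 (0.285) or 3 (0.213), or TWEAK replicate 1 (0.194) or 3 (0.196).

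**Figure D5:**
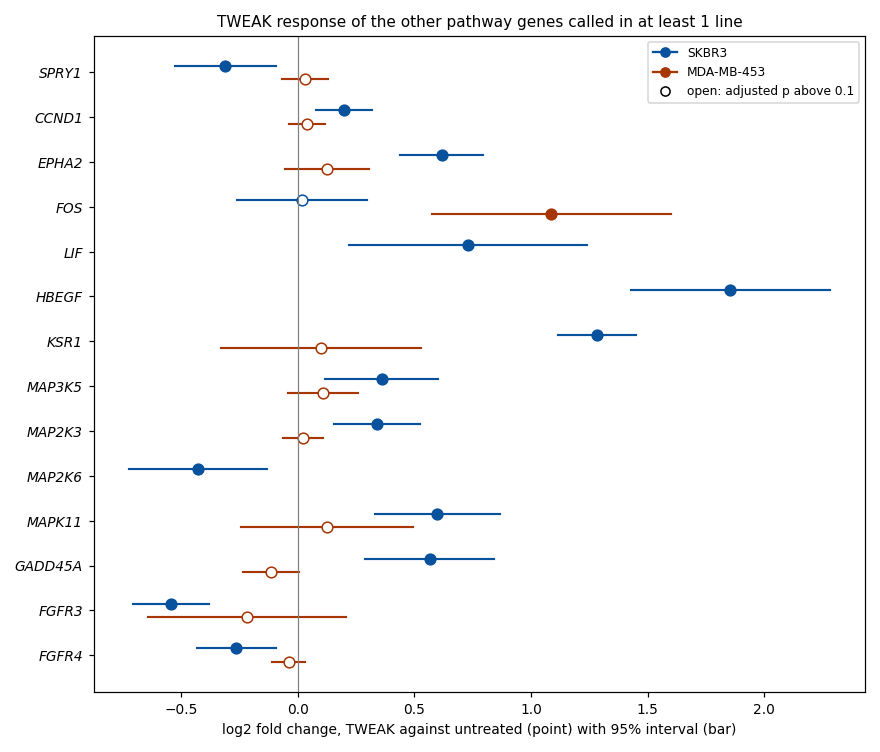
Log2 fold change of TWEAK-treated against untreated cells (points) with its 95% interval (bars) for the other pathway genes called in at least 1 line, open points having an adjusted p above 0.1. HBEGF (1.85) and KSR1 (1.28) lead in SKBR3 and FOS (1.09) is the single filled point of MDA-MB-453, where genes without a point were not tested.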

How the data were processed

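Counts per gene of 12 libraries were analysed, as deposited: raw counts on 62696 Ensembl genes, which the authors made by trimming reads with Trimmomatic, mapping them to hg38 with STAR and counting with featureCounts. RNA was poly-A selected, and the strand setting, the tool versions and the annotation release are not given in the sources used here. The study's methods name a directional RNA library kit, whereas the sample labels name a DNA library kit. Symbols, positions and lengths came from GENCODE 44, which held 61918 identifiers with their version and 707 without it, and 71 were not matched. The members and gene lists were chosen with earlier results of these data known. The rule for named genes took all 10 members, at most 3 called genes with the largest changes per list and line, and 2 genes most correlated with each called member among genes with a mean of at least 1 CPM in each line.

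Tests were run in R 4.3.3 with edgeR 4.0.16 on genes kept by filterByExpr, with TMM factors, the two-sided quasi-likelihood test and Benjamini-Hochberg adjustment over all genes tested, called at 0.1 as in the study. TWEAK-treated and untreated cells were compared on the 6 libraries of a line, and the interaction and the untreated lines on all 12. CPM used the TMM factors of the 12 libraries, and TPM the union of exons. Fitted changes use a prior count of 0.125. Intervals are at 95%, and those from summed counts cover counting error only, since there were no molecular identifiers. Replicates are biological replicates per the study's methods. The test was checked on simulated data, with an outcome that is not given here. The alternatives were DESeq2 size factors in edgeR, DESeq2 1.42.0, no filter, at least 10 counts in every library, a block for the replicate number, a threshold of 0.05, all 12 libraries in 1 fit and each library left out. A correction for GC content and length, the interaction without TWEAK replicate 2 of both lines and the 6 untreated libraries alone were added after the data were seen. No deposited column was left unassigned.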

Additional observations from a re-analysis of the deposited data

Results flagged for a closer look

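Several responses differed between the lines in the interaction of line and TWEAK, given as MDA-MB-453 minus SKBR3 on the log2 scale with edgeR's adjusted p. KSR1 differed by -1.19 (0.00184) and GADD45A by -0.69 (0.00664), and both were called in all 20 alternatives. Neither was called within MDA-MB-453. There KSR1 was low, at 36 to 59 counts per library, and its groups overlapped. GADD45A had 18.8 to 19.5 CPM untreated and 17.05 to 18.03 CPM with TWEAK in MDA-MB-453. Its TWEAK replicates thus all lay below the untreated ones there, as for 6.88% of all genes tested, and above them in SKBR3. EPHA2 differed by -0.50 (0.0267) and was called in 19 of 20, the exception being without MDA-MB-453 untreated replicate 3 (0.105). HBEGF had a fitted difference of -2.44 (0.0299), but it was too low to be tested in MDA-MB-453, with 3 to 16 counts per library, and entered this test only through SKBR3, so no difference between the lines is read from it. Its value was -1.66 (0.337) without MDA-MB-453 untreated replicate 3, which held the 16 counts. FOS differed by 1.06 (0.0528), a call lost without SKBR3 untreated replicate 2 (0.138), MDA-MB-453 untreated replicate 1 (0.154) or 2 (0.177), or MDA-MB-453 TWEAK replicate 1 (0.146) or 3 (0.186). MAP2K3 differed by -0.32 (0.0994), with adjusted p up to 0.258 over the alternatives and a call in 8 of 20.

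For DUSP6, which was called in neither line, every TWEAK replicate lay below the untreated ones in SKBR3 and, in CPM but not in TPM, above them in MDA-MB-453. The interaction was 0.50, and its test missed the threshold (edgeR adjusted p = 0.193).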

How the results depend on the processing

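Of the 10 genes, DUSP1 kept its call in SKBR3 in every alternative, and with a library left out 9 to 10 genes, ETV5 included, were called between the untreated lines. The calls of SPRY2, SPRED1 and ETV4 were lost in 7, 8 and 3 of 14 alternatives. The number of the 10 genes called in SKBR3 was 4, against 2 with the replicate block, 2 at an adjusted p of 0.05 and 1 to 4 with a library left out. In MDA-MB-453 it was 0, against 2 with the block, 1 with the GC content and length correction and 0 to 2 with a library left out. For the interaction, ETV5 included, it was 0, against 1 with the GC content and length correction, 3 without TWEAK replicate 2 of both lines and 0 to 2 with a library left out. Over all genes in SKBR3, 1633 were called (1034 higher), against 2575 with all 12 libraries in 1 fit, 3131 (1783 higher) with the GC content and length correction and 926 to 2780 with a library left out. Over all genes in MDA-MB-453, 223 were called (192 higher), against 480 (302 higher) without a filter, 894 (490 higher) with the block, 144 with all 12 libraries in 1 fit, 375 (261 higher) with the GC content and length correction and 131 to 2101 with a library left out, the latter without TWEAK replicate 2 (1003 higher). For the interaction 579 were called (173 higher), against 1214 (535 higher) with the GC content and length correction, 2077 (964 higher) without TWEAK replicate 2 of both lines and 394 to 1150 with a library left out. The cause of these shifts was not tested.

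With the GC content and length correction SPRY2 was called between the untreated lines (-0.31), DUSP4 was called in SKBR3 (-0.12), DUSP5 in MDA-MB-453 (-0.15) and SPRED1 in the interaction (-0.37), and with all 12 libraries in 1 fit DUSP6 was called in SKBR3 (-0.44). Directions turned only among log2 fold changes that had not been called. With a library left out, SPRY4 in SKBR3 ran from -0.046 to 0.12, and in MDA-MB-453 DUSP4 ran from -0.091 to 0.0031, SPRY2 from -0.19 to 0.083, SPRED1 from -0.054 to 0.032 and ETV4 from -0.10 to 0.078. In the interaction DUSP10 ran from -0.27 to 0.14. The fitted interaction of ETV5, which was too low to be tested in SKBR3, ran from -0.18 to 0.43 and is not read as a difference between the lines. SPRED1 in MDA-MB-453 was 0.032 with the GC content and length correction. No scaling moved the median of all genes by over 0.1.

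Same-numbered untreated and TWEAK replicates correlated in their deviations from the group means by 0.22, -0.18 and -0.29 in SKBR3 and by 0.17, 0.17 and 0.02 in MDA-MB-453, so the numbers were not taken to pair the samples. In MDA-MB-453 every sample correlated best with its own number, a hint from the data and not the design, and in SKBR3 this was not so. With the replicate block, SPRY2 (0.52, edgeR adjusted p = 0.111) and SPRED1 (0.30, 0.105) missed the threshold in SKBR3, and DUSP5 (-0.13, 0.0436) and DUSP10 (0.18, 0.0872) passed it in MDA-MB-453. DUSP6, DUSP10 and SPRY2 in SKBR3 and ETV5 in both lines are limited by depth, with 2 to 131 counts per library.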
